A study of Mus musculus with 12 samples.

Results

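Meis1, Meis2, Meis3, Pbx2, Pbx3, Pknox1 and Pknox2 are homeobox genes whose proteins act as cofactors of Hox proteins, and their RNA was followed through sorted serotonin neurons and neighbouring cells of the mouse embryonic neural tube. Every probe set on the array that the platform annotation assigns to one of these 7 genes was taken, which gave 18 of 45101 probe sets and 7 of 18193 genes named singly on the array. There were 3 for Meis1, 4 for Meis2, 1 for Meis3, 3 for Pbx2, 2 for Pbx3, 3 for Pknox1 and 2 for Pknox2. Of the 18, 16 entered the tests, which required 3 or more arrays with a signal above 107 (the median of the deposited values). On all 12 arrays 14 of these 16 lay above 107, while Pknox1 probe sets 1421233_at and 1450172_at did so on 3 and 4 arrays. The other 2 probe sets, Meis1 1459423_at and Pknox2 1428017_at, had signals of 40 to 145 and 4 to 53, above 107 on 1 and 0 arrays.

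Embryos of stage E12.5 carried the ePet-EYFP transgene, whose ePet enhancer makes serotonin neurons fluoresce yellow (YFP). Cuts at the mesencephalic flexure, the pontine flexure and the spinal cord divided the neural tube into a rostral and a caudal domain, and the cells of each were sorted by flow cytometry. R+ and C+ are the rostral and caudal YFP-positive serotonin neurons, R- and C- the YFP-negative cells of the same domains, and all 4 groups come from the same genotype and stage. Each group had 3 arrays labelled as biological replicates, with 200000 sorted cells per array. The YFP-negative groups hold every other cell type of the tissue, blood cells included, and are not a single neuron class.

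The Pbx, Meis and Pknox families belong to the TALE class of homeobox genes, named for a loop extension in the homeodomain. Pbx proteins bind DNA side by side with Hox proteins and sharpen their choice of sites. Meis proteins and Pknox proteins, also called Prep, bind Pbx proteins, help to hold them in the nucleus, and can join Hox and Pbx proteins in larger complexes. In the embryonic hindbrain such complexes switch on Hox genes and other genes that give each segment its identity.

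Probe set names carry information on what they detect. An ending in _a_at marks a set that detects several transcripts of 1 gene, _s_at one that may detect transcripts of more than 1 gene, and _x_at one in which some probes resemble unrelated sequences. Values below are signals from the MAS5 algorithm on a linear scale, as means ± SD (n = 3). A difference is the mean log2(signal + 10) of the group named first less that of the second, ± SE, which understates the differences of dim probe sets. A probe set was called when its limma p, adjusted by the Benjamini-Hochberg method over 26061 probe sets, was under 0.05. Because different probe sets have different brightness for the same RNA, levels are compared between groups and never between probe sets or genes.

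The sort and the dissection were checked with marker lists. All 7 serotonin neuron markers, among them Tph2 and Slc6a4, were called higher in R+ than in R- and in C+ than in C-, and their summed signal was 58228 to 64782 in R+, 4601 to 4971 in R-, 42158 to 46366 in C+ and 2221 to 3279 in C-. Tph2 lay at 20 to 83 in R- and 18 to 41 in C-, so it passed the filter (signal over 107) through the YFP-positive arrays. In C- Slc6a4 (13 to 65) and Slc18a2 (60 to 77) lay under 107 too. The direction of these calls was thus set beforehand. Ddc, Gata2, Gata3 and Lmx1b lay over 107 on all 12 arrays. Of 5 midbrain and isthmus markers 4, among them En2 and Otx2, were called higher in R+ than in C+ and in R- than in C-, with sums of 4440 to 4864 in R+, 6364 to 6785 in R-, 262 to 447 in C+ and 268 to 493 in C-. Otx2 (13 to 26 in C+ and 10 to 107 in C-) and Cnpy1 (41 to 81 and 58 to 77) passed the filter through the rostral arrays. The direction of their calls was therefore also set beforehand. Red blood cell markers summed to 8693 to 15580 in R+ against 45070 to 59141 in R-, and to 4792 to 8626 in C+ against 40427 to 44926 in C-. The ratio of 3' to 5' signal of the beta-actin control, a measure of RNA integrity and of how completely it was copied, was 2.64 to 4.39 on the 6 rostral arrays and 4.52 to 7.69 on the 6 caudal arrays, so the ranges did not overlap. Same-numbered arrays of different groups deviated together, so fits with the replicate number as a block are given where they change a call.

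Meis1 and Meis2 are shown with their promoters because each had probe sets called lower in R+ than in both R- and C+. The sequences are the 250 bases upstream of the start listed by RefSeq on GRCm38.p6, written 5' to 3' on the gene's strand. The Meis1 stretch is chr11:19018970-19019219 and the Meis2 stretch is chr2:116064620-116064869, both on the minus strand.
Meis1: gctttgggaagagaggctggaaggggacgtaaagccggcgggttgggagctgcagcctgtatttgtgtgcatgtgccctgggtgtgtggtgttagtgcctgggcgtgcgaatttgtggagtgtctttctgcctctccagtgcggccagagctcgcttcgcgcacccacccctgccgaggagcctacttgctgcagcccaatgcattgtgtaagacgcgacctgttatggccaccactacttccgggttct
Meis2: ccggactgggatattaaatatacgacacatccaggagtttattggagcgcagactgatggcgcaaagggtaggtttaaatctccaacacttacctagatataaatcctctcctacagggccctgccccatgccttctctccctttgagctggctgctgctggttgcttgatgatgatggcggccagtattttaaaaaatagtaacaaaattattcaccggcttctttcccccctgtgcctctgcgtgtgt
The letters TGACAG, the core site bound by Meis and Pknox proteins, were searched on both strands together with the PBX-HOX site TGATNNAT, which shares its first letters. Neither had a match in either stretch, so no letter is in capitals. Among 32851 upstream stretches of the same length, 15.9% held the core site and 7.68% the PBX-HOX site. Meis1 lies at chr11:18880428-19019651 and Meis2 at chr2:115861264-116067537, so the starts used here are not the outermost ends of the annotated genes. RefSeq places the long noncoding RNA Gm16141 over part of the span of Meis1 and G630016G05Rik over part of that of Meis2. Whether any probe set reads them was not tested.

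Meis2, which mouse embryos need in the neural crest, was the member with the widest differences, and it was low in R+. Its brightest probe set, 1457632_s_at, had signals of 2790, 3453 and 3118 in R+ and of 10273, 10060 and 7172 in R-. In C+ it had 13503, 18694 and 14515, and in C- 11130, 13808 and 10603. All 3 R+ arrays therefore lay below all 9 others, and the R- arrays lay below the C- arrays, while C+ and C- overlapped.

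The R+ mean of this probe set was 3120.3 ± 332, against 9168 ± 1732 in R-, a difference of -1.54 ± 0.17 (limma adjusted p = 6.02e-05), or 2.91-fold lower in R+. Against C+, at 15571 ± 2752, R+ was lower by 4.95-fold (-2.31 ± 0.17, adjusted p = 3.54e-06). In the caudal domain C+ stood at 15571 ± 2752 and C- at 11847 ± 1719, a difference of 0.39 ± 0.17 that did not pass (adjusted p = 0.224). With the replicate number as a block this small difference did pass (adjusted p = 0.0319). Fewer cells of a type and less RNA per cell cannot be told apart in such sorted populations.

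The other Meis2 probe sets gave the same order of groups, C+ highest, then C-, R- and R+. Probe set 1417129_a_at had 1132, 940 and 861 in R+, 4509, 3562 and 2795 in R-, 9179, 5395 and 4829 in C+, and 6735, 4015 and 4223 in C-. Its R+ arrays were again the lowest of all 12, and R+ differed from R- by -1.86 ± 0.26 (limma adjusted p = 0.00039) and from C+ by -2.66 ± 0.26 (adjusted p = 4.26e-05). Probe set 1447861_x_at differed by -1.87 ± 0.21 and -2.60 ± 0.21 in these comparisons (limma adjusted p = 7.48e-05 and 7.89e-06). The dimmest one, 1440091_at, ranged from 146 to 226 in R+, from 408 to 582 in R-, from 884 to 2841 in C+ and from 528 to 1249 in C-. On this probe set R+ was called lower than C+ (-2.81 ± 0.40, limma adjusted p = 0.00135), but without replicate 2 that call was lost (-3.06, adjusted p = 0.0708). Its difference between R+ and R- was -1.24 ± 0.40 (limma adjusted p = 0.0896), which passed with the replicate number as a block (adjusted p = 0.00232). C+ and C- differed by 1.00 ± 0.40 on it (limma adjusted p = 0.177), and by the block this too passed (adjusted p = 0.00923).

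**Figure D1:**
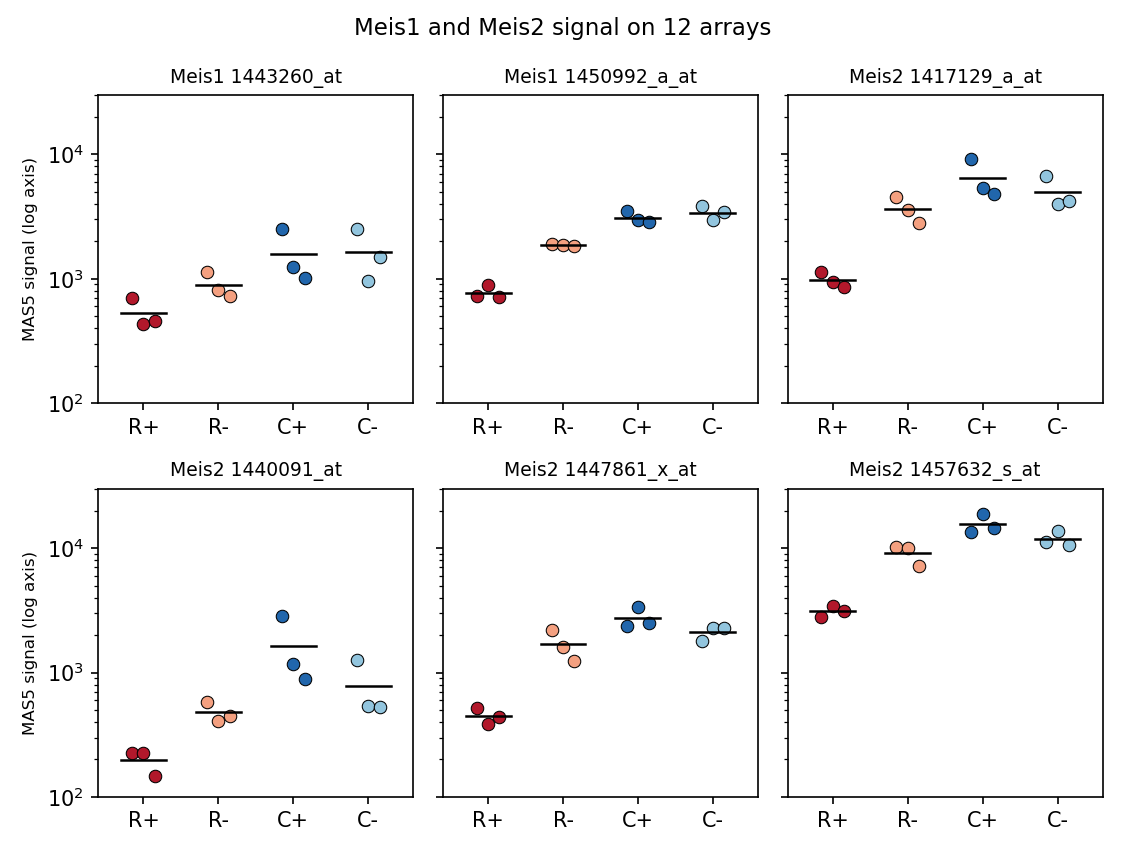
Signal of the 2 Meis1 and 4 Meis2 probe sets that entered the tests (vertical log axis, MAS5 signal) in R+, R-, C+ and C-, with 1 point per array and a line at the mean of 3 arrays. The R+ arrays lie lowest in every panel, as with 2790 to 3453 for Meis2 1457632_s_at against 7172 to 18694 in the other groups.

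Meis1, identified in mouse as a gene activated by viral insertion in myeloid leukaemia, was likewise low in R+. Its brightest probe set, 1450992_a_at, had 725, 885 and 712 in R+, 1919, 1863 and 1829 in R-, 3480, 2949 and 2877 in C+, and 3810, 2966 and 3418 in C-. R+ lay below R-, R- lay below both caudal groups, and C+ overlapped C-. The R+ mean of 774 ± 96.3 was 2.41-fold below the R- mean of 1870.3 ± 45.4 (-1.27 ± 0.14, limma adjusted p = 6.42e-05). It was 3.97-fold below the C+ mean of 3102 ± 329 (-1.99 ± 0.14, limma adjusted p = 2.55e-06). C+ and C- differed by -0.13 ± 0.14, with a 95% interval of -0.43 to 0.18, which did not pass (limma adjusted p = 0.707).

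The second Meis1 probe set, 1443260_at, ranged from 432 to 700 in R+, from 726 to 1126 in R-, from 1012 to 2509 in C+ and from 966 to 2504 in C-. Here R+ was also the lowest group and the caudal arrays spread more widely. R+ differed from C+ by -1.49 ± 0.36 (limma adjusted p = 0.0383). That call was lost without R+ replicate 2 or 3, R- replicate 3, C+ replicate 1 or 2, or C- replicate 3 (adjusted p of 0.103, 0.146, 0.0555, 0.0577, 0.092 and 0.06). The difference from R- was -0.74 ± 0.36 and did not pass (limma adjusted p = 0.315), but did with the replicate number as a block (adjusted p = 0.0102).

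Meis3, whose Xenopus counterpart promotes hindbrain fate, showed no called difference. Its only probe set ranged from 265 to 579 in R+, from 400 to 460 in R-, from 397 to 676 in C+ and from 401 to 658 in C-, and all 4 groups overlapped. The 95% interval of R+ against C+ ran from -0.90 to 0.32, and that of R+ against R- from -0.75 to 0.47. Differences of the size seen for Meis2 lie outside these intervals, whereas smaller ones do not.

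Pknox2, which encodes Prep2, was lowest in C+ and highest in C- on its tested probe set. Probe set 1433907_at had 451, 464 and 618 in C+ and 2043, 2004 and 2276 in C-, against intermediate values in the rostral domain, of 665, 1096 and 831 in R+ and 681, 1286 and 961 in R-. The C+ and C- arrays were far apart, and the R+ and R- arrays overlapped. C+ averaged 511 ± 92.9 and C- 2108 ± 147, so that C+ was 4.10-fold lower (-2.04 ± 0.23, limma adjusted p = 6.83e-05). R+, at 864 ± 217, and R-, at 976 ± 303, differed by -0.16 ± 0.23 (limma adjusted p = 0.839).

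R- was lower than C- for Pknox2 (-1.15 ± 0.23, limma adjusted p = 0.0252). R+ was higher than C+ by 0.73 ± 0.23, which did not pass (limma adjusted p = 0.103). It passed with the replicate number as a block (adjusted p = 0.0127), without replicate 1 (0.82, adjusted p = 0.0259) and with the beta-actin ratio as a covariate (1.35, adjusted p = 0.0303). RefSeq places the long noncoding RNAs Gm34652 and Gm34538 within the span of Pknox2, and whether the probes read them was not tested.

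Pbx3, whose loss in mice causes failure of breathing control after birth, was modestly higher in both YFP-positive groups. Probe set 1447640_s_at had 17495, 19282 and 15745 in R+ against 12724, 13008 and 10169 in R-. In C+ it had 13000, 15293 and 13385, against 9880, 10113 and 9445 in C-. The YFP-positive arrays of each domain lay above the YFP-negative arrays of that domain. R+ was 1.47-fold higher than R- (0.55 ± 0.12, limma adjusted p = 0.0129) and C+ was 1.41-fold higher than C- (0.50 ± 0.12, limma adjusted p = 0.0225).

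Both Pbx3 calls were close to the threshold. The rostral one was lost without R+ replicate 2 (0.48, adjusted p = 0.069) or R- replicate 3 (0.44, adjusted p = 0.0666). The caudal one was lost without C+ replicate 2 or 3 or any one of the 3 C- arrays (0.43 to 0.52, adjusted p = 0.051 to 0.112). Scaling every array to one median gave adjusted p of 0.0944 and 0.0637. Against C+, R+ differed by 0.33 ± 0.12, which passed with the replicate number as a block (adjusted p = 0.0169) but not without it (limma adjusted p = 0.157).

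The second Pbx3 probe set, 1421193_a_at, ranged from 4285 to 6280 in R+, from 2740 to 2884 in R-, from 2175 to 4374 in C+ and from 1896 to 3042 in C-. R+ lay above R- on every array, whereas C+ and C- overlapped. It differed by 0.80 ± 0.24 between R+ and R- (limma adjusted p = 0.0618) and by 0.72 ± 0.24 between R+ and C+ (adjusted p = 0.112). Both passed with the replicate number as a block, at adjusted p of 0.00271 and 0.00662, and without C+ replicate 1, at 0.0153 and 0.0129.

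Pbx2, whose loss alone leaves mice without an overt defect, varied little. Its brightest probe set, 1418893_at, ranged from 2065 to 2547 in R+, from 1943 to 2231 in R-, from 1619 to 2056 in C+ and from 1386 to 1610 in C-. The rostral arrays tended to be brighter, and R+ and C+ did not overlap, but R+ minus C+ was 0.37 ± 0.14 and R- minus C- 0.41 ± 0.14, and neither passed (limma adjusted p = 0.169 and 0.24). Without replicate 1 the first of these passed (0.56, adjusted p = 0.0318). Probe set 1418894_s_at ranged from 683 to 750 in R+, against 379 to 571 in R- and 444 to 587 in C+. Its differences from those groups, 0.60 ± 0.21 and 0.52 ± 0.21 (limma adjusted p = 0.107 and 0.183), passed with the replicate number as a block (adjusted p = 0.0182 and 0.0373). The third probe set, 1449261_at, ranged from 388 to 916 over all 12 arrays and had no called difference in either fit.

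Pknox1 encodes Prep1, which mouse embryos need at an early stage. Its brightest probe set, 1437470_at, ranged from 359 to 417 in R+, from 286 to 542 in R-, from 449 to 897 in C+ and from 481 to 914 in C-. The caudal arrays were mostly brighter, but R+ minus C+ was -0.57 ± 0.31 and R- minus C- was -0.79 ± 0.31, and neither passed (limma adjusted p = 0.335 and 0.315). With the replicate number as a block both did (adjusted p = 0.0496 and 0.0207). The dim probe sets 1421233_at and 1450172_at ranged from 48 to 159 and from 8 to 155, overlapped between all groups, and had intervals too wide to set a useful bound (for C+ against C-, -1.16 to 0.86 and -2.87 to 0.19).

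**Figure D2:**
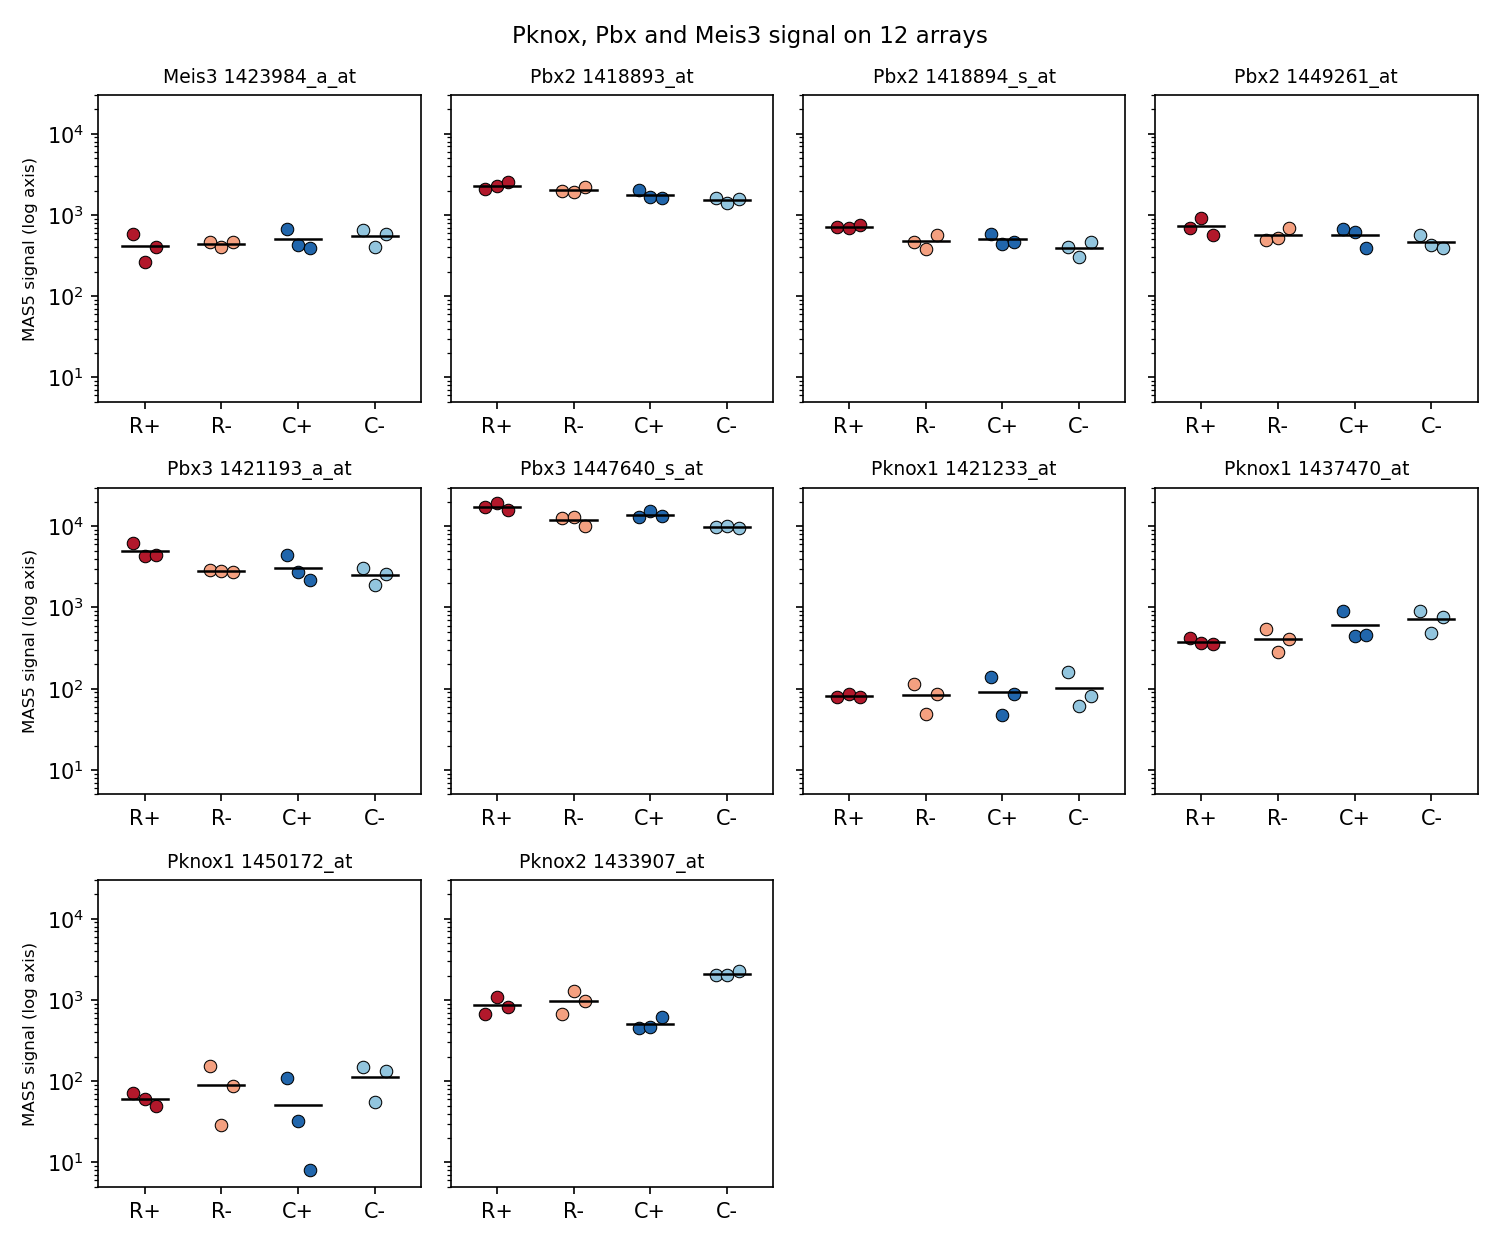
Signal of the Meis3, Pbx2, Pbx3, Pknox1 and Pknox2 probe sets that entered the tests (vertical log axis, MAS5 signal) in R+, R-, C+ and C-, with 1 point per array and a line at the mean of 3 arrays. Pknox2 1433907_at lies at 451 to 618 in C+ and 2004 to 2276 in C-, and Pbx3 1447640_s_at is highest in R+.

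Seen by comparison, the contrast of R+ with R- asked which of these genes separate rostral serotonin neurons from other rostral cells. Of 16 probe sets 4 were called lower in R+ (1 of Meis1 and 3 of Meis2) and 1 higher (Pbx3), while 4.88% of all tested probe sets were lower and 2.79% higher. With the replicate number as a block 6 were lower and 3 higher, and 14.4% of all probe sets were called in either direction. Probe sets of 1 gene share its transcripts and are not independent. Markers of other cells moved in the same comparison. Progenitor and cell cycle markers were lower in R+ for 6 of 7 genes (summed signal 18448 to 20685 in R+ and 46305 to 55421 in R-), all 5 glutamate neuron markers were lower (1539 to 2339 against 21131 to 24382), and so were all 4 GABA neuron markers, all 4 red blood cell markers and 3 of 6 markers of mesenchyme and meninges. Going the other way, 1 of 4 macrophage markers, Lyz2, was higher in R+ (2.47 ± 0.54, limma adjusted p = 0.0117). Of 5 midbrain and isthmus markers En1 was higher (1.56 ± 0.30) and Otx2 lower (-3.09 ± 0.54). The part of all these markers in the Meis differences was not tested.

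Of the 16 probe sets, 1 was called lower in C+ than in C- (Pknox2) and 1 higher (Pbx3), beside 4.64% lower and 3.56% higher among all probe sets. The block gave 1 lower and 3 higher, the added ones being of Meis2, with 16.4% of all called. Markers of other cells moved here too: progenitor and cell cycle markers were lower in C+ for 6 of 7 genes (19036 to 25587 in C+ and 48126 to 48667 in C-), glutamate neuron markers for 5 of 5 (1406 to 2072 against 16853 to 19563) and red blood cell markers for 4 of 4. GABA neuron markers were lower for 3 of 4 (3131 to 3622 against 9229 to 11454), Gad1 not passing (-0.17 ± 0.19, limma adjusted p = 0.721). Of 6 mesenchyme and meninges markers 4 were lower and 1, Dcn, was higher in C+ (2345 in C+ and 417 in C- on average, limma adjusted p = 8.56e-05). Among the lower ones Pdgfra (23 to 86 in C+) passed the filter through the C- arrays alone, so its direction was set beforehand. Of 3 endothelium markers 2 were lower in C+, Kdr (-1.14 ± 0.33, limma adjusted p = 0.0499) and Cldn5 (-1.40 ± 0.33, adjusted p = 0.0178). Of 4 macrophage markers 1, Csf1r, was lower (-0.94 ± 0.22, limma adjusted p = 0.0136). The part of all these markers in the Pknox2 and Pbx3 differences was not tested.

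**Figure D3:**
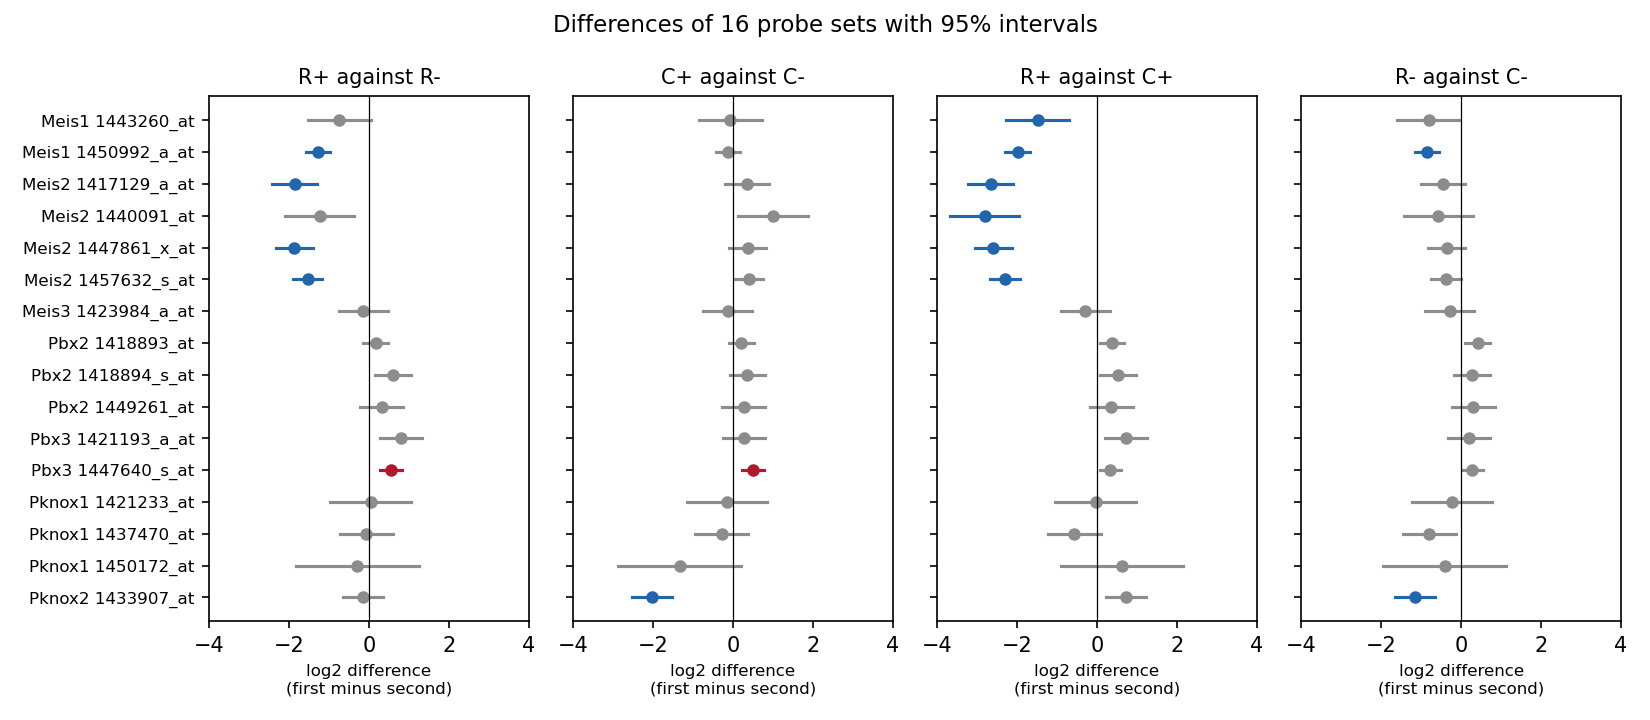
Differences on the log2(signal + 10) scale (horizontal axis, group named first minus the other) for the 16 probe sets in 4 comparisons, with 95% intervals from the limma fit. Blue marks calls lower and red calls higher in the group named first: all 4 Meis2 probe sets are blue in R+ against C+, and none is coloured in C+ against C-.

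R+ against C+ asked which of the genes differ between rostral and caudal serotonin neurons. All 6 tested Meis1 and Meis2 probe sets were called lower in R+ and none of the 16 was called higher, while 2.39% of all probe sets were lower and 1.38% higher. With the block 7 were lower, Pknox1 being added, and 4 higher (2 of Pbx3, 1 each of Pbx2 and Pknox2), with 16.6% of all called. The beta-actin 3' to 5' ratio ran with this comparison and did not overlap between the domains. A fit with that ratio as a covariate therefore cannot tell ratio and domain apart. In it the Meis2 probe sets differed by -3.84 (1440091_at), -3.24 (1417129_a_at), -2.66 (1447861_x_at) and -2.27 (1457632_s_at), with limma adjusted p of 0.000194 to 0.000924. The Meis1 probe set 1450992_a_at differed by -2.04 with that covariate (adjusted p = 0.000216). The call of Meis1 1443260_at was lost with it (-2.19, adjusted p = 0.0541), and Pknox2 1433907_at was then called higher in R+ (1.35, adjusted p = 0.0303). Among markers of other cells, 1 of 6 of mesenchyme and meninges was called, Dcn, lower in R+ (116 on average, against 2345 in C+). This matrix proteoglycan gene made up most of the list's summed signal in C+. The sum was 576 to 744 in R+ and 2885 to 3301 in C+. Of 4 GABA neuron markers 2 were called lower in R+. They were Gad1, the gene of a GABA-synthesising enzyme (184 in R+ and 2125 in C+ on average), and Slc32a1 (-1.01 ± 0.22). Gad2 (-0.30 ± 0.23, limma adjusted p = 0.531) and Lhx1 (-0.10 ± 0.23, adjusted p = 0.877) were not. Summed GABA neuron signal was 980 to 1186 in R+ and 3131 to 3622 in C+. Called higher in R+ were 1 of 7 progenitor and cell cycle markers (Hes5), 1 of 4 macrophage markers (Csf1r) and 3 of 7 serotonin neuron markers. Their part in the Meis differences was not tested.

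R- against C- asked the same of the YFP-negative cells. There 2 of 16 probe sets were called lower in R-, Meis1 1450992_a_at (-0.85 ± 0.14, limma adjusted p = 0.00639) and Pknox2 1433907_at, and 0 higher, beside 0.959% lower and 0.533% higher among all. Markers of other cells that moved here were 2 of 6 of mesenchyme and meninges, lower in R- (Pdgfra, -4.13 ± 0.65, and Dcn, -1.59 ± 0.29), 1 of 5 of glutamate neurons, higher in R- (Lhx9, 2.00 ± 0.37), and 3 of 7 of serotonin neurons, higher in R- (Ddc by 3.43 ± 0.14). Pdgfra lay at 5 to 13 in R- and over 107 only in C- (275 to 354), so the direction of its call was set beforehand. The part of these markers in the differences was not tested. No Meis2 probe set was called in this comparison, the 4 differences lying between -0.57 and -0.36. The block gave 5 lower, with 1 more each for Meis1, Meis2 and Pknox1 (adjusted p of 0.0141, 0.0372 and 0.0207), and 6.79% of all called. With the beta-actin ratio as a covariate neither of the first 2 calls held (adjusted p = 0.0529 for Meis1 and 0.285 for Pknox2), and scaling every array to one median also ended both (0.131 and 0.0588). That scaling moved the share of higher calls among all called probe sets to 48.1%, against 35.7% as deposited. The Pknox2 call was also lost without R- replicate 1 or 3 or any one of the 3 C- arrays (-1.18 to -0.91, adjusted p = 0.0693 to 0.119).

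Whether the rostral difference between YFP-positive and YFP-negative cells differed from the caudal one was tested directly, as (R+ minus R-) minus (C+ minus C-). Of 16 probe sets 4 were negative and past the threshold, and 1 was positive, beside 0.33% and 0.192% of all probe sets. The negative ones were Meis2 1457632_s_at (-1.93 ± 0.24, limma adjusted p = 0.0016), 1447861_x_at (-2.24 ± 0.30, adjusted p = 0.00326) and 1417129_a_at (-2.22 ± 0.37, adjusted p = 0.0144), and Meis1 1450992_a_at (-1.14 ± 0.20, adjusted p = 0.0206). The positive one was Pknox2 1433907_at (1.88 ± 0.33, limma adjusted p = 0.0206). On these Meis1 and Meis2 probe sets the value in serotonin neurons relative to their neighbours was thus lower in the rostral domain than in the caudal one. In the caudal domain the Meis2 differences were 0.35 to 1.00 and that of Meis1 1450992_a_at was -0.13. The second Meis1 probe set, 1443260_at, gave -0.68 ± 0.51 and did not pass, nor did it with the replicate number as a block (adjusted p = 0.282). For Pknox2 the value relative to neighbours was lower in the caudal domain. Some markers of cell types passed the same test with the sign of the Meis genes: 1 of 4 GABA neuron markers (Gad1, -3.00 ± 0.27, limma adjusted p = 9.73e-05), 1 of 6 mesenchyme and meninges markers (Dcn, -2.69 ± 0.42, adjusted p = 0.00893) and 2 of 7 serotonin neuron markers, Ddc (-2.21 ± 0.20) and Gata2 (-1.18 ± 0.22). Their part in the result was not tested.

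Within each of the 3 replicate numbers the sign was the same, from -2.16 to -1.65 for Meis2 1457632_s_at, from -1.26 to -1.06 for Meis1 and from 1.66 to 2.12 for Pknox2. The block added the Meis2 probe set 1440091_at (-2.24 ± 0.33, adjusted p = 0.00248), and 1.61% of all probe sets were called with it. Scaling every array to one median ended the calls of Meis1 (adjusted p = 0.124) and of Meis2 1417129_a_at (0.0716), and the share of positive calls among all called probe sets was then 26.7%, against 36.8% as deposited. Without replicate 2 or without replicate 3, which leaves 8 arrays, none of the 5 calls held (-2.55 to -1.16 for the negative ones, and 1.89 and 1.99 for Pknox2). Meis1 and Pknox2 also lost theirs without several single arrays, as given in the closing section.

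The Hox genes that share complexes with these cofactors were compared in the same fit, as 13 measured genes of the anterior paralogue groups. In R+ 12 of 13 were lower than in C+ and 0 higher (median -4.67, against -0.01 over all probe sets), and in R- 11 of 13 were lower than in C- and 0 higher (median -5.43, against -0.03). Among all probe sets 2.39% were lower in R+ than in C+ and 0.959% in R- than in C-. On every R+ array Hoxa3, Hoxa4, Hoxa5, Hoxb4, Hoxb5, Hoxc4, Hoxc5, Hoxd1 and Hoxd3 lay under 107. They passed the filter through the caudal arrays, which set the direction of their calls beforehand, and the medians rest on such values. Hoxa2 and Hoxb2 lay over 107 on all 12 arrays. They were lower in R+ than in C+ (-1.93 ± 0.16 and -2.19 ± 0.20) and in R- than in C- (-2.70 ± 0.16 and -2.76 ± 0.20). Hoxb3 averaged 148 in R+ and 8822 in C+ (-5.93 ± 0.36), and 272 in R- and 12574 in C- (-5.61 ± 0.36). The Hox differences between domains were thus present in both gates. None of the 13 was past the threshold in the difference of the rostral and caudal differences. In C+ 7 of 13 were lower than in C-, among them Hoxa2 (-1.32 ± 0.16). There the median was -1.35, against -0.02 over all probe sets, of which 4.64% were lower. Between R+ and R- none was called, beside 4.88% lower and 2.79% higher among all.

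Other TALE homeobox genes and the gene of the PBX-binding protein Pbxip1 gave 9 measured genes. In R+ and in C+ 5 of the 9 were lower than in the YFP-negative cells of the domain and 0 higher (medians -1.57 and -1.38, against 0.02 and -0.02 over all). Among all probe sets 4.88% and 4.64% were lower in these comparisons. The 5 genes were Irx3, Irx4 and Irx5, which pattern the neural tube and other tissues, and the repressors Tgif1 and Tgif2. Irx4 (16 to 91 in R+ and 54 to 98 in C+) and Tgif1 (14 to 83 and 4 to 37) lay under 107 on every YFP-positive array. They passed the filter through the YFP-negative arrays, so the direction of their calls was set beforehand. Their limma adjusted p was 0.0117 and 0.0469 in the rostral domain, and 0.0494 and 0.0208 in the caudal one. Irx3 averaged 1029 in R+ and 5401 in R- (-2.38 ± 0.18), and 300 in C+ and 1829 in C- (-2.55 ± 0.18). Along the other axis 4 of 9 were higher in R+ than in C+ and in R- than in C-, namely Irx1, Irx2, Irx3 and Irx5, with Irx1 at 1.30 ± 0.22 and 0.98 ± 0.22. The medians of the 9 were 0.83 and 0.71, against -0.01 and -0.03 over all probe sets, of which 1.38% and 0.533% were higher. The differences of these 4 Irx genes between domains were opposite in sign to the Hox ones in both gates, and none of the 9 was past the threshold in the difference of differences. Pbx4 (79 to 114 on average) and Pbxip1 (205 to 356) had no called difference.

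Genes known in mouse as targets of Meis, Pknox or Pbx complexes gave 8 measured genes, of which 5 are Hox genes counted above. In R+ 2 of 8 were lower than in R-, Pax6 (-1.57 ± 0.23), an eye and brain patterning gene, and Sst (-3.20 ± 0.30), the neuropeptide somatostatin. The median of the 8 was -0.67, against 0.02 over all probe sets, of which 4.88% were lower. Both genes were also lower in C+ than in C- (-1.79 ± 0.23 and -3.44 ± 0.30), as were 3 of the Hox genes, Hoxa2, Hoxa3 and Hoxb2. There the median was -1.33, against -0.02 over all, of which 4.64% were lower. Between R+ and C+, where Meis1 and Meis2 differed most, Pax6 and Sst did not pass (-0.11 ± 0.23 and 0.20 ± 0.30, limma adjusted p = 0.854 and 0.786), nor did Epha8, an Eph receptor (0.63 ± 0.27, adjusted p = 0.233). The 4 lower ones there were Hoxa2, Hoxa3, Hoxb2 and Hoxb4, of which Hoxa3 and Hoxb4 passed the filter through the caudal arrays. The median of the 8 was -1.02 in this comparison, against -0.01 over all probe sets, of which 2.39% were lower.

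**Figure D4:**
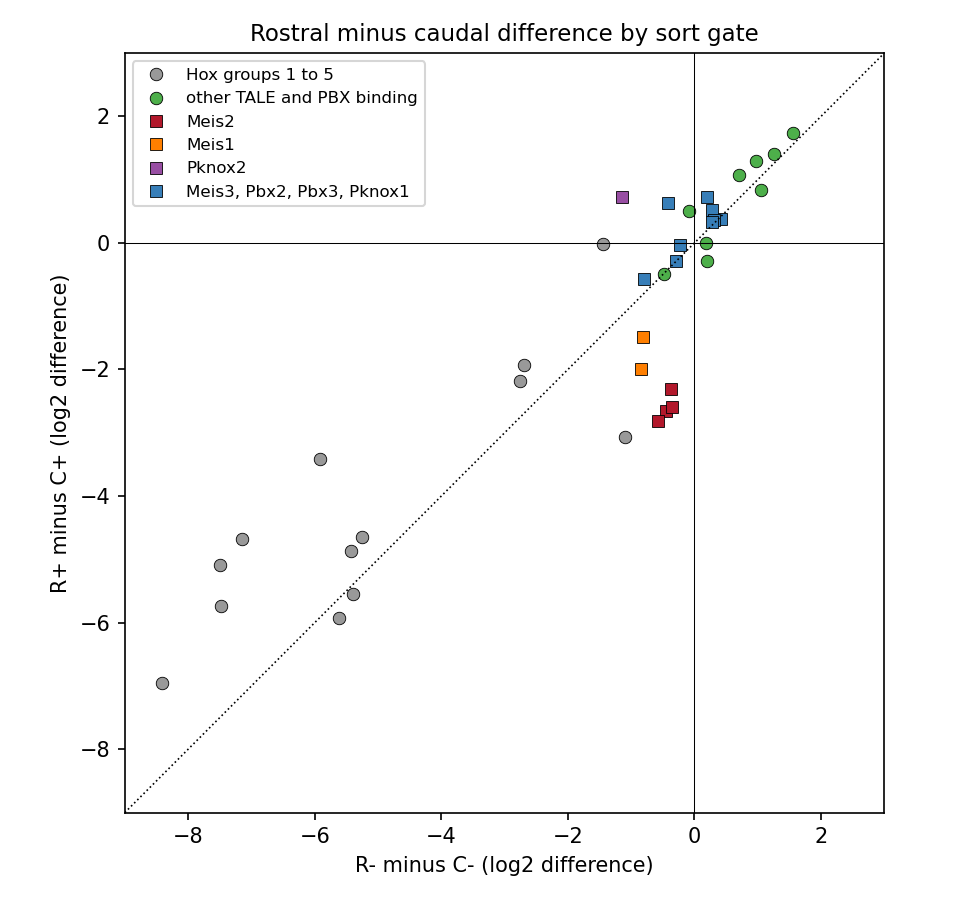
Rostral minus caudal difference on the log2(signal + 10) scale in YFP-positive cells (vertical axis, R+ minus C+) against YFP-negative cells (horizontal axis, R- minus C-), with 1 square per probe set of the 7 genes and 1 circle per gene of the Hox and other TALE lists; the dotted line marks equal differences. Meis2 (from -2.81 to -2.31 vertically, -0.57 to -0.36 horizontally) lies below the line, Pknox2 (0.73 and -1.15) above it, and the Irx genes lie near it.

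For members whose group means spanned more than 1 on the log2 scale, the 3 most similar profiles were sought among 12844 other genes, by the root-mean-square difference over 12 arrays after removing each probe set's mean. The profile nearest to Meis2 was that of Meis1 (0.32, against a median of 0.95 over all genes), followed by Lhfp (0.33) and the Eph receptor gene Epha3 (0.34). The nearest to Meis1 were Wscd1 (0.26), Zfp703 (0.26) and Vav3 (0.27), with a median of 0.91 over all. The nearest to Pknox2 was Nptx1 (0.17, median 0.83), which encodes a secreted neuronal pentraxin and averaged 206 in C+ and 1061 in C-. Ptger4, a prostaglandin receptor gene, and Bcl2l11, a gene of programmed cell death, followed at 0.30 and 0.32. The match of Ptger4 rests partly on low signals, as it averaged 58 in R+, 88 in R- and 42 in C+, against 180 in C-.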

How the data were processed

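RNA from 12 sorted cell samples (R+, R-, C+ and C-, 3 each, grouped by their titles) had been hybridized to Affymetrix Mouse 430 2.0 arrays. Per the submitters' processing notes the authors used MAS5; its settings are not given here. Values as deposited are signal intensity on a linear scale, and without the lowest and highest 2% their mean was 500 on every array, with medians of 93 to 121. After 64 controls were left out, probe sets with signal over 107 on at least 3 arrays were kept (26061 of 45101). Means per group were fitted to log2(signal + 10) over all 12 arrays with limma 3.58.1 in R 4.3.3, with trended eBayes, 5 contrasts, two-sided tests and Benjamini-Hochberg adjustment over all kept probe sets at 0.05. The fit was tested on simulated data. For lists, a gene's brightest probe set on average stood for it, _x_at ones only where no other existed.

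All members and the probe sets of each were described; the most similar genes were named for members spanning over 1, 3 each. Members and lists were chosen with earlier results of these data known. Same-numbered arrays of different groups correlated at 0.169 to 0.597 (18 of 18 pairs over 0.1) in deviations from group means, and other pairs at -0.468 to 0.318, so the numbers were taken to pair the arrays. The main fit did not use this pairing, and the replicate block, which did, was an alternative. Replicates are labelled biological but no litter is named, so the p-values may reflect technical spread only, and 3 arrays per group limit precision. Alternatives changed the offset, filter, unit, scaling, covariate, moderation and arrays used.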

Additional observations from a re-analysis of the deposited data

Results flagged for a closer look

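The difference between YFP-positive and YFP-negative cells was not the same in the rostral and the caudal domain for 5 probe sets, by a test of that difference itself. It was -1.14 for Meis1 1450992_a_at, -2.22 for Meis2 1417129_a_at, -2.24 for Meis2 1447861_x_at and -1.93 for Meis2 1457632_s_at on the log2 scale, with limma adjusted p from 0.0016 to 0.0206. It was 1.88 for Pknox2 1433907_at (limma adjusted p = 0.0206). For Meis2 the rostral gap was negative and the caudal gap slightly positive on all 3 of these probe sets. For Pknox2 the gap lay in the caudal domain, at -2.04, against -0.16 in the rostral one. Groups of 3 arrays are too small for a search for single outlying arrays.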

How the results depend on the processing

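Over 20 called member differences and 26 alternatives or fewer, none changed sign. Those of R+ against R- and against C+ for Meis1 1450992_a_at and for Meis2 1417129_a_at, 1447861_x_at and 1457632_s_at passed in every alternative run, as did Pknox2 in C+ against C-. With 1 probe set per gene (7 tested) 3, 2 and 3 members were called in the rostral gate comparison, R+ against C+ and the difference of differences, where fewer probe sets were tested. The replicate block gave 11 (R+ against C+), 9 (R+ against R-), 5 (R- against C-) and 4 calls (C+ against C-), and left the other count within 1.5 times. Without a filter 1 was called in C+ against C-. Scaling to one median gave 1 in C+ against C-, 0 in R- against C- and 3 in the difference of differences, and eBayes without a trend gave 1, 1 and 2. The beta-actin covariate gave 0 in R- against C-. Except for the unit and the filter, the cause of these changes was not tested. Leaving out arrays or replicates, the counts were 4 to 9 (R+ against C+), 4 to 8 (R+ against R-), 0 to 2 (R- against C-), 1 to 3 (C+ against C-) and 0 to 6 in the difference of differences. In that last comparison Meis1 lost its call without R+ replicate 1 or 3, any R- array, C+ replicate 2, or C- replicate 2 or 3 (adjusted p = 0.0504 to 0.0756). Pknox2 lost it without R+ replicate 2 or 3, R- replicate 3, C+ replicate 2, or C- replicate 2 or 3 (0.0513 to 0.075), and Meis2 1417129_a_at without C- replicate 3 (0.0526). Dim probe sets limit what can be said of Pknox1.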
